A study of Mus musculus with 6 samples.

Results

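Smooth muscle contractile genes encode the filaments that make smooth muscle cells, pericytes and myofibroblasts contract, and 10 of them were followed here in mouse bone marrow stromal cells that had taken up apoptotic thymocytes. The 10 were chosen by name from the 53735 features of the count table: the actins Acta2 and Actg2, the tropomyosins Tpm1 and Tpm2, the thin filament proteins Cnn1, Cald1, Tagln and Lmod1, and the myosin chains Myh11 and Myl9. All 10 were in the table and all had enough reads to be tested. The cells were wild-type (labelled wt) mesenchymal stromal cells, negative for haematopoietic lineage markers, CD45 and CD31 and positive for CD51, grown at 2% oxygen and used at passage 2 or 3. Of the 6 libraries, 3 came from control cultures that were given no thymocytes. The other 3 came from fed cultures, which had been left with dye-labelled apoptotic thymocytes for 24 h at 5% oxygen and from which dye-positive cells were sorted. Control cultures were given no dye-labelled cells by which to select, so selection of dye-positive cells and a response to feeding cannot be told apart. The labels do not give the age, strain or sex of the mice, the number of mice behind a library, or the oxygen and medium of the control wells over the same hours.

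In a contractile cell, actin thin filaments slide past myosin. Tropomyosin lies along the thin filament, calponin and caldesmon restrain the myosin motor on it, and phosphorylation of the regulatory light chain by myosin light chain kinase switches the motor on. Most of these genes carry CArG boxes, the binding sites of serum response factor (SRF), which activates them together with myocardin or the myocardin-related factors. Marrow stromal cells in culture spread on stiff plastic and are known to express many of these genes, Acta2 above all, so the genes mark a contractile or myofibroblast state there and not smooth muscle as such. In bulk RNA, fewer cells expressing a gene and less RNA of it per cell cannot be told apart.

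In GENCODE M21 on GRCm38 the genes lie, with their strand, as follows: Acta2 at chr19:34241090-34255590 (minus), Actg2 at chr6:83512905-83536265 (minus), Tpm1 at chr9:67022590-67049406 (minus), Tpm2 at chr4:43514711-43523765 (minus), Cnn1 at chr9:22099216-22109630 (plus), Cald1 at chr6:34598500-34775473 (plus), Tagln at chr9:45929619-45936058 (minus), Lmod1 at chr1:135324807-135368065 (plus), Myh11 at chr16:14194535-14291372 (minus) and Myl9 at chr2:156775420-156781658 (plus). The counts are over whole genes, exons of all isoforms together.

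The RefSeq promoter table for build GRCm38.p6 held 7 of the 10 genes, in 8 windows. Shown are the 250 bases before the start of Acta2 (chr19:34255374-34255623, minus strand) and Myl9 (chr2:156775214-156775463, plus strand), in which CArG sequences were found, and of Tpm1 (chr9:67049214-67049463, minus strand) and Tpm2 (chr4:43523555-43523804, minus strand), a pair of related genes that moved in opposite directions. Capitals mark CArG boxes and CArG-like sequences. The start is that of the promoter table, and the distances below are counted from it. The GENCODE gene spans above begin further upstream, so each window shown lies partly within the span of its gene.
Acta2: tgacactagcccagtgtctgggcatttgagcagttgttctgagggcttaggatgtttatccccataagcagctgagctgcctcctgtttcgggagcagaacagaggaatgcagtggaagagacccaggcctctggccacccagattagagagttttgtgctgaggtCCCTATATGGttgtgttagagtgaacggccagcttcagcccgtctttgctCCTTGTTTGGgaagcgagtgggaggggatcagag
Myl9: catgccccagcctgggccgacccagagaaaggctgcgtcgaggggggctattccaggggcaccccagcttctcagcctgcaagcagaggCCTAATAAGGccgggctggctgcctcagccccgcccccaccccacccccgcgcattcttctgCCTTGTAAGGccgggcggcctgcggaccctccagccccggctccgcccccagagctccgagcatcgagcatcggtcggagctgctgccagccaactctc
Tpm1: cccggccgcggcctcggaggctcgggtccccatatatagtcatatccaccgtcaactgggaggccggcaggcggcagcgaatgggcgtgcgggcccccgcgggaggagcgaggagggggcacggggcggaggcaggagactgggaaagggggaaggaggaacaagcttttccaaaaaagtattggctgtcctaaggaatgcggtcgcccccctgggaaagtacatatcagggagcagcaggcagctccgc
Tpm2: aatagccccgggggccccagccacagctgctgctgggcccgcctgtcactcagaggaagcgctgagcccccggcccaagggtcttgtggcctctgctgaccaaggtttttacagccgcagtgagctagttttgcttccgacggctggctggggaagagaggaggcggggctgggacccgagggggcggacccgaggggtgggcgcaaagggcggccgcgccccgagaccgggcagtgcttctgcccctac

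A CArG box was searched as the full 10-base consensus, and a CArG-like sequence as the same with 5 of the 6 core bases A or T; the form is the same on both strands. Myl9 had the full consensus CCTAATAAGG, beginning 161 bases before the start, and the CArG-like CCTTGTAAGG at 99 bases. Acta2 had no full consensus in the window but 2 CArG-like sequences, CCCTATATGG at 84 bases and CCTTGTTTGG at 34 bases. No match was found in the windows of Tpm1, Tpm2, Cnn1, Cald1 and Lmod1. Over all 32851 promoter windows, 1.47% held the full consensus and 8.59% held either form. A match describes the letters of the window and does not show that SRF binds there.

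Library totals ran from 19069074 to 22410047 counts. The first principal component separated the groups, and on the second component control replicate 3 lay far from its group, so its effect is given below where it decides a value. All 11 stromal markers listed had enough reads to test, among them Pdgfra at 494 ± 19.9 CPM (counts scaled to the TMM-adjusted library total, mean ± SD, n = 3) and Itgav, the gene of CD51, at 289 ± 11.6 CPM in control libraries. Of 16 striated muscle markers only Actn3 had enough reads, and Myh2, Myh4, Myh6, Myh8 and Pax7 had no count in any library. The 15 thymocyte markers summed to between 0.417 and 0.948 CPM in control and between 0.782 and 1.73 CPM in fed libraries, with Cd3g, Rag2, Ptcra and Cd2 at 0 throughout. The 13 macrophage markers summed to between 14.0 and 15.3 CPM in control and between 20.5 and 22.0 CPM in fed libraries, with C1qa, C1qb and C1qc at 0 in every control library and Fcgr1 at 0 throughout. The 10 endothelial markers summed to between 7.56 and 8.11 CPM in control and between 5.84 and 8.03 CPM in fed libraries, with Cdh5, Emcn, Tie1 and Cldn5 at 0 throughout. Of 4 macrophage markers tested, 2 were called higher and 0 lower, beside 20.5% and 19.0% of all genes tested. Lyz2 rose from 3.32 ± 0.659 to 7.47 ± 0.866 CPM. Cd14 rose from 4.28 ± 0.0367 to 5.36 ± 0.641 CPM, a call lost in 12 of 15 alternatives (adjusted p = 0.0490 by edgeR). Csf1r and Cd68 were not called. Of 4 endothelial markers tested, 1 was called lower and 0 higher. Vwf fell from 2.79 ± 0.377 to 1.70 ± 0.461 CPM, while Tek, Esam and Egfl7 were not called, Egfl7 at 1.33 and 1.71 CPM in control and fed libraries. Of the 11 stromal markers 6 were called lower and 0 higher, beside 19.0% and 20.5% of all genes tested. Among those lower were Thy1, from 418 ± 13.4 to 322 ± 3.28 CPM, and Pdgfra, to 399 ± 19.1 CPM. The part of other cell types in the results below was not tested.

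The contractile genes did not move together in fed cells. Cnn1 and Tpm1 rose, Tpm2 and Lmod1 fell, and Acta2, Actg2, Tagln, Cald1, Myl9 and Myh11 did not pass an adjusted p of 0.05 by edgeR's quasi-likelihood test. Of all 13092 genes tested, 39.5% were called, 20.5% higher and 19.0% lower, so the 4 calls among the 10 contractile genes stand near the share of all genes. The median log2 fold change of the 10 was -0.01, as was that of all genes tested. Called changes among the 10 were small, with log2 fold changes between -0.21 and 0.18. The groups did not overlap for 4 of the 10, with fed above control for Cnn1, Myl9 and Tpm1 and below for Tpm2; over all genes tested the share without overlap was 49.1%.

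**Figure D1:**
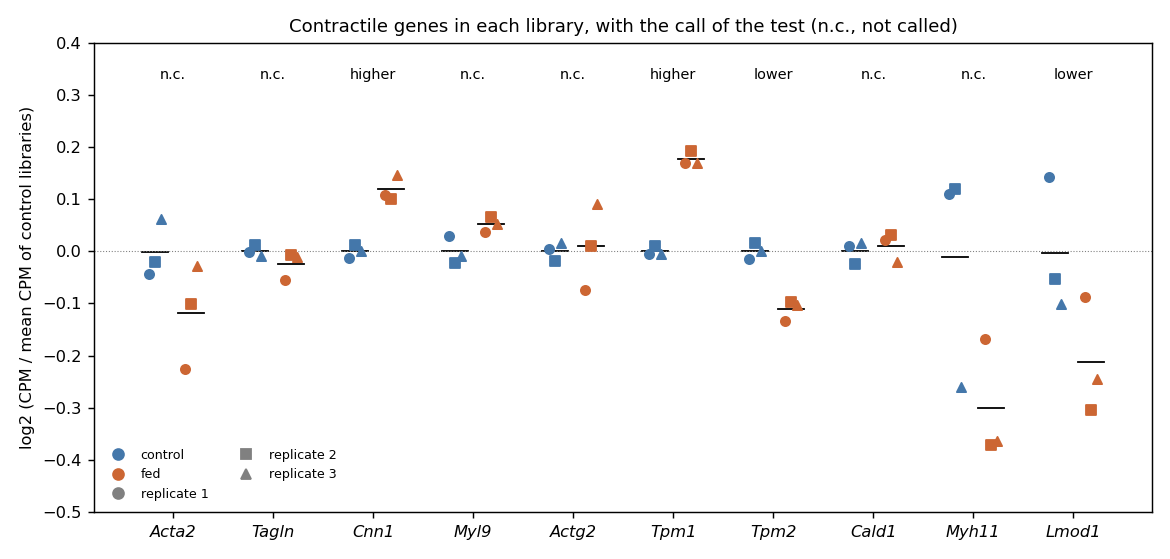
Level of each contractile gene in the 3 control (blue) and 3 fed (orange) libraries, as the log2 of its CPM over the mean CPM of the control libraries, with group means as black lines and the call of the test above. Tpm1, Cnn1 and Tpm2 separate the groups by little but cleanly, while Acta2, Myh11 and Lmod1 spread widely within them.

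The actins form the thin filament itself. Acta2, the alpha actin of smooth muscle, had 7287, 7398 and 7835 CPM in control libraries and 6423, 6995 and 7360 CPM in fed libraries. Its highest fed library lay above its lowest control library, so the groups overlapped. The mean fell short of a call, at 7507 ± 290 against 6926 ± 472 CPM (SD, n = 3), with a fitted log2 difference of -0.12 ± 0.048 (SE). The adjusted p was 0.0638 by edgeR, and the 95% interval of the fold was 0.860 to 0.990. Acta2 passed the threshold once control replicate 1 (adjusted p = 0.0467) or fed replicate 3 (0.0296) was dropped. It also passed with upper quartile scaling (0.0434), with no low-count filter (0.0278) and with the replicate number as a block (0.0019). Over all alternatives the adjusted p ranged from 0.0019 to 0.338. Acta2 was the gene with the 8th highest mean CPM of those tested. Actg2, the gamma actin of visceral smooth muscle, had 235, 231 and 237 CPM in control and 223, 236 and 249.6 CPM in fed libraries, which lay on both sides of the control values. Its log2 fold change was 0.01 ± 0.041 (adjusted p = 0.849), and the interval of the fold was 0.950 to 1.07. Its sign turned with upper quartile scaling and without fed replicate 3.

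The tropomyosins went in opposite directions. Tpm1 had 892, 902 and 892 CPM in control and 1006, 1023 and 1007 CPM in fed libraries, without overlap and with a narrow spread in each group. It rose by 0.18 ± 0.035 on the log2 scale (SE, adjusted p = 0.000463), a call that all 15 alternatives kept. Tpm2 had 929, 949 and 939 CPM in control and 856, 878 and 874 CPM in fed libraries, again without overlap. It fell by 0.11 ± 0.036 on the log2 scale (adjusted p = 0.0175), but was not called with library totals only (0.0996), without control replicate 2 (0.0844) or without fed replicate 1 (0.0638). The ratio of Tpm1 to Tpm2 counts, which no scaling of the library touches, was 0.960, 0.951 and 0.950 in control and 1.18, 1.17 and 1.15 in fed libraries. The 2 genes make several isoforms each by alternative promoters and splicing, in muscle and in other cells, and counts per gene do not separate them.

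Of the proteins that bind the thin filament, Cnn1 (calponin, an inhibitor of myosin's ATPase) had 282, 287 and 285 CPM in control and 307, 305 and 315 CPM in fed libraries. All 3 fed libraries lay above the control libraries. It rose by 0.12 ± 0.035 on the log2 scale (adjusted p = 0.00988), a call lost without fed replicate 3 (0.0505). Cald1 (caldesmon) had 1259.9, 1229.5 and 1264.5 CPM in control and 1270.2, 1279 and 1233 CPM in fed libraries, which overlapped. The interval of its fold, 0.955 to 1.06, holds no change, with an adjusted p of 0.839, and its sign turned with upper quartile scaling and without control replicate 2. Tagln (transgelin, also called SM22, an actin crosslinker and an early marker of the smooth muscle lineage) had 2041, 2060 and 2030 CPM in control and 1968, 2035 and 2028 CPM in fed libraries. The groups overlapped, with fed replicate 1 the lowest of the 6. The interval of its fold was 0.932 to 1.04 (adjusted p = 0.644), and its sign turned with library totals only. In the annotation the span of Tagln overlaps that of Pcsk7 on the opposite strand. Whether their exons overlap was not examined, and the strand setting of the counting is not given in the sources used here. Whether reads of Pcsk7 entered the counts of Tagln is therefore not known. The span of Cald1 likewise overlaps those of Npn2, Gm13861 and Gm14547, and that of Lmod1 the small RNA gene Gm22796, all on the opposite strand.

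Lmod1 (leiomodin, which nucleates actin filaments in smooth muscle) had 86.5, 75.5 and 73.1 CPM in control and 73.7, 63.4 and 66.1 CPM in fed libraries. The highest fed value, of replicate 1, lay just above the lowest control value, of replicate 3. It fell by 0.21 ± 0.072 on the log2 scale (adjusted p = 0.0394), but not past the threshold once control replicate 1 (0.0694), fed replicate 2 (0.118) or the third fed library (0.142) was dropped.

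Of the myosin chains, Myh11, the smooth muscle heavy chain and the most specific marker of the mature cell among the 10, had 51.2, 51.5 and 39.6 CPM in control and 42.2, 36.7 and 36.8 CPM in fed libraries. Control replicate 3 lay among the fed libraries and the other control libraries lay above them. With all 6 libraries the log2 fold change was -0.30 ± 0.11 (adjusted p = 0.0810), the largest in size among the 10, and it was not called. Without control replicate 3 it was -0.41 with an adjusted p of 5.78e-06. Myh11 was also called by DESeq2 (0.00456), limma-voom (0.0123) and without robust estimation (0.0102). The same held with no low-count filter (3.15e-06) and with the replicate number as a block (8.69e-05). Leaving out any other single library gave no call. Myl9, the regulatory light chain that the kinase phosphorylates, had 684, 660 and 666 CPM in control and 688, 701 and 694 CPM in fed libraries. Every fed library lay above every control library, by as little as 688 over 684 CPM. The log2 fold change was 0.05 ± 0.036 (adjusted p = 0.269), and none of the 15 alternatives called it.

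Per kilobase of annotated exon (GENCODE M21, all exons of a gene merged), the order of levels in control libraries was Acta2 at 3418 ± 132 CPM per kb (SD, n = 3), Tagln at 1028 ± 7.55, Myl9 at 577 ± 10.7, Tpm2 at 323 ± 3.35, Actg2 at 151 ± 1.82, Tpm1 at 138 ± 0.884, Cnn1 at 104 ± 0.848, Cald1 at 104 ± 1.58, Lmod1 at 19.8 ± 1.81 and Myh11 at 6.24 ± 0.895 CPM per kb. Cnn1 and Cald1 did not differ beyond their spread in control libraries. In fed libraries Tpm1 stood at 156 ± 1.45 and Actg2 at 152 ± 8.65 CPM per kb, so the order of these neighbours turned within the spread of Actg2. The merged exons of Cald1 (12041 bases) and Tpm1 (6485 bases) hold those of several isoforms, so their levels per kb may be too low. Of the 10 genes, only Acta2 and Myh11 shared any 50-base stretch with transcripts of other genes, for 0.326% and 0.34% of their stretches. Acta2 shared them with 6 other genes, among them the pseudogene Actg-ps1, and Myh11 with 2, among them Myh9.

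Non-muscle and striated muscle members of the same protein families were then set beside the contractile genes. Of 18 paralogues listed, 13 could be tested, 6 rose and 2 fell (20.5% and 19.0% of all genes tested), and the median log2 fold change was 0.09 against -0.01 over all genes tested. Tagln2, the broadly expressed transgelin, had 505, 514 and 547 CPM in control and 732, 769.99 and 724 CPM in fed libraries, a rise of 0.51 ± 0.040 on the log2 scale (SE, adjusted p = 6.25e-09). The cytoplasmic actins rose as well, Actb from 3458 ± 59.3 to 4265 ± 42.2 CPM (SD, n = 3, adjusted p = 2.48e-06) and Actg1 from 926 ± 47.7 to 1232 ± 64.9 CPM (adjusted p = 5.81e-07). The others that rose, named after their values were seen, were the calponin Cnn2 by 0.29, the tropomyosin Tpm3 by 0.17 and the skeletal muscle actin Acta1 by 0.74 on the log2 scale, the last at only 11.1 ± 1.81 CPM in control libraries. Cnn3 and Tpm4 were not called, at log2 fold changes of 0.04 (adjusted p = 0.429) and 0.09 (adjusted p = 0.0694). Myl12b, a non-muscle regulatory light chain, fell from 88.0 ± 1.26 to 62.9 ± 1.99 CPM (adjusted p = 1.41e-08), and the non-muscle heavy chain Myh10 fell by 0.18 on the log2 scale. The annotated spans of Myl12b and Myl12a overlap on the same strand, and how reads there were assigned was not examined. The calls of Tagln2, Actb, Actg1, Myl12b, Cnn2, Tpm3 and Myh10 were the same under all 15 alternatives, and that of Acta1 was lost under 1.

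**Figure D2:**
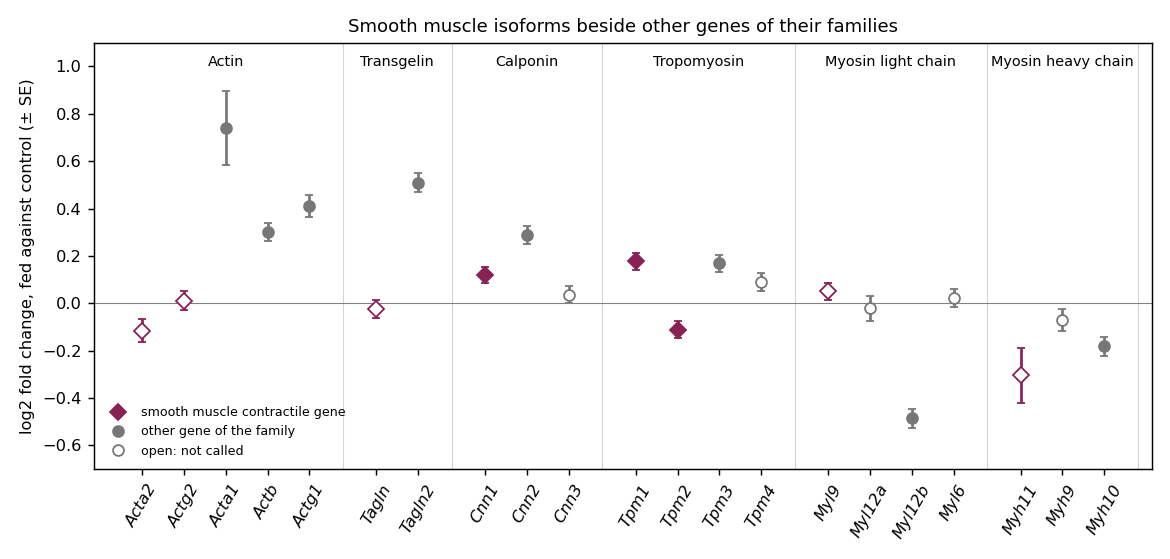
Log2 fold change of fed against control with its SE for the smooth muscle contractile genes (diamonds) and other genes of the same families (circles), with open symbols for genes that were not called. Actb and Actg1 stand above Acta2 and Actg2, Tagln2 above Tagln and Cnn2 above Cnn1, whereas Cnn3 lies below Cnn1, and Tpm3 and Tpm4 lie below Tpm1.

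Among 6 actin genes, Acta2 held 65.0%, 65.6% and 66.1% of counts per exon kb in control and 57.4%, 58.7% and 59.9% in fed libraries, while Actb went from 24.8% ± 0.663 to 29.7% ± 1.23 and Actg1 from 6.68% ± 0.174 to 8.62% ± 0.142 (SD, n = 3). Tagln held 80.9%, 80.8% and 79.5% of the transgelin counts per kb in control and 73.8%, 73.4% and 74.6% in fed libraries. In both families every fed library had a lower share than every control library. Of 4 tropomyosin genes, Tpm2 went from 24.9% ± 0.362 to 22.2% ± 0.184 and Tpm1 the other way, from 10.7% ± 0.191 to 11.6% ± 0.205, both without overlap. Myl9 held 70.1% ± 1.87 of its light chain family in control and 71.8% ± 0.956 in fed libraries, with overlap. From control to fed libraries the ratio of Acta2 to Actb counts went from 2.17 ± 0.0760 to 1.62 ± 0.101, that of Tagln to Tagln2 from 3.92 ± 0.182 to 2.71 ± 0.0821 and that of Cnn1 to Cnn2 from 0.340 ± 0.00863 to 0.302 ± 0.00496, each without overlap of the groups. The ratio of Myl9 to Myl12a counts, at 0.917 ± 0.0877 and 0.961 ± 0.0465, overlapped. The overlapping spans of Myl12a and Myl12b may bear on this ratio and on the light chain shares. These ratios were taken as a description and were not tested; 3 against 3 libraries cannot give an exact permutation p under 0.1.

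**Figure D3:**
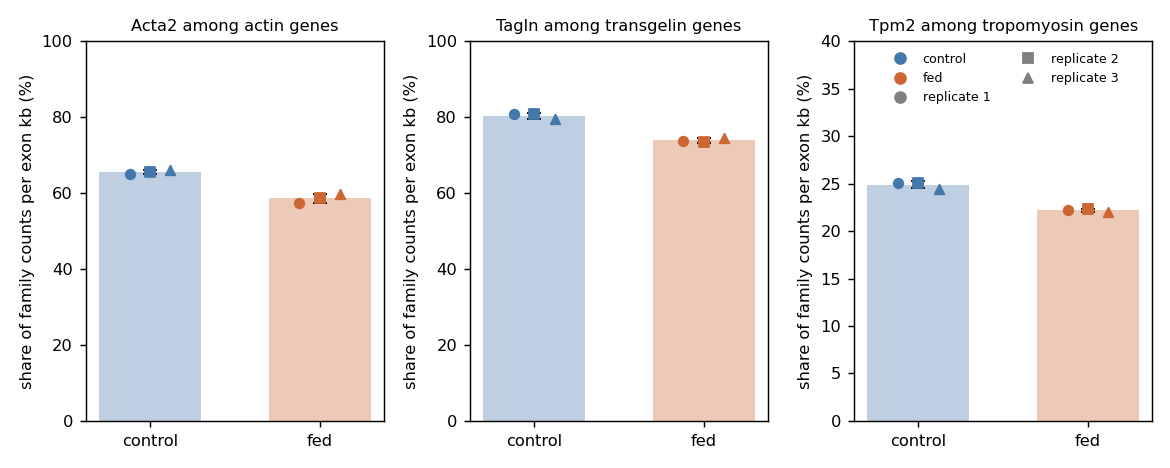
Share of each family's counts per exon kilobase held by Acta2 (of 6 actin genes), Tagln (of 3 transgelin genes) and Tpm2 (of 4 tropomyosin genes), as bars of the mean with SD and a point per library; the axis of Tpm2 ends at 40%. For these 3 genes the fed libraries lie below the control libraries; the share of Tpm1, not drawn, went the other way.

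Of 20 genes of the SRF and myocardin list, all tested, 5 rose and 7 fell (background 20.5% and 19.0%), and the median log2 fold change was -0.03. Srf had 64.5, 67.1 and 68.2 CPM in control and 85.5, 83.8 and 81.4 CPM in fed libraries, a rise of 0.33 ± 0.041 on the log2 scale (SE, adjusted p = 2.47e-06). Myocd, the myocardin gene, whose product is the co-activator most restricted to smooth and cardiac muscle, was low, with 4.96, 4.44 and 4.11 CPM in control and 1.83, 2.67 and 2.73 CPM in fed libraries. It fell by 0.89 ± 0.16 on the log2 scale (adjusted p = 0.000177), from counts of 107, 94 and 78 to 37, 58 and 62. Neither group overlapped the other for Srf or Myocd, and both calls were the same under all 15 alternatives.

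Mkl1 and Mkl2, the myocardin-related factors that actin monomers hold in the cytoplasm, were not called. Mkl1 had 123 ± 2.21 CPM in control and 130 ± 4.02 in fed libraries (adjusted p = 0.142, and 0.0406 with library totals only), and Mkl2 36.6 ± 0.542 and 38.6 ± 2.02 CPM (adjusted p = 0.263). Klf4, which represses contractile genes in smooth muscle cells that leave the contractile state, went from 56.8 ± 3.20 to 76.5 ± 2.65 CPM, and Csrp1, a LIM protein of actin filaments, from 504 ± 17.0 to 599 ± 17.8 CPM, both called higher (adjusted p = 4.12e-07 and 2.92e-05).

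**Figure D4:**
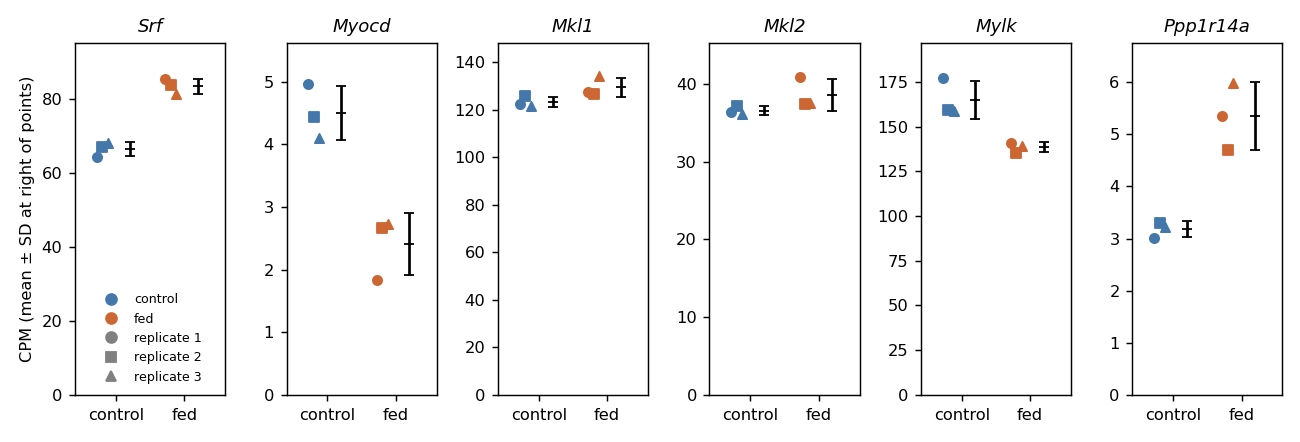
CPM of Srf, Myocd, Mkl1, Mkl2, Mylk and Ppp1r14a in each control (blue) and fed (orange) library, with mean ± SD beside the points; each panel has its own axis from 0. Srf and Ppp1r14a are higher and Myocd and Mylk lower in all 3 fed libraries than in any control library.

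Of 20 genes that set the phosphorylation of the light chain, all tested, 6 rose and 5 fell (against 20.5% and 19.0% of all genes). Their median log2 fold change was 0.00. Mylk, the light chain kinase, had 177, 159 and 159 CPM in control and 141, 135 and 139 CPM in fed libraries. It fell by 0.25 ± 0.043 on the log2 scale (SE, adjusted p = 9.05e-05). Ppp1r12a, the targeting subunit of the opposing myosin phosphatase, fell too, from 95.7 ± 6.16 to 75.5 ± 4.34 CPM (adjusted p = 2.51e-05). The phosphatase inhibitors Ppp1r14a and Ppp1r14b rose, the former from 3.18 ± 0.150 to 5.34 ± 0.650 CPM (adjusted p = 0.000182) and the latter from 73.1 ± 2.07 to 91.0 ± 3.59 CPM (adjusted p = 4.94e-06). These 4 calls were the same under all 15 alternatives.

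Of 24 genes of the smooth muscle cytoskeleton and its adhesions, 23 were tested, 9 rose and 5 fell (all genes, 20.5% and 19.0%), and the median log2 fold change was 0.11. Itga5, the alpha subunit of the fibronectin receptor, rose from 421 ± 2.04 to 561 ± 20.2 CPM and Zyx, zyxin of focal adhesions, from 567 ± 12.6 to 746 ± 26.7 CPM. Actn1, an alpha-actinin that crosslinks actin, rose from 912 ± 6.87 to 1122 ± 7.40 CPM, and Smtn, smoothelin, from 156 ± 5.77 to 181 ± 4.15 CPM (adjusted p = 1.15e-06 and 0.000173). The 5 that fell, named after their values were seen, were Synpo2, Vcl, Pdlim5, Itga1 and Mustn1, with log2 fold changes of -0.21, -0.17, -0.12, -0.39 and -0.22; Synpo2 lost its call in 8 of 15 alternatives and Pdlim5 in 2, and only 3 fell with library totals only or without fed replicate 2.

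Of 16 channels and receptors of smooth muscle, 12 were tested, 2 rose and 3 fell, near the 20.5% and 19.0% of all genes, and the median log2 fold change was 0.00. With library totals only, 4 rose. Agtr1a, the angiotensin II receptor, had 5.70, 4.16 and 5.43 CPM in control and 1.98, 2.16 and 2.42 CPM in fed libraries, a fall by 1.21 ± 0.16 on the log2 scale (SE, adjusted p = 4.54e-06), and its groups did not overlap. The prostacyclin receptor Ptgir fell from 13.3 ± 0.844 to 10.5 ± 0.471 CPM. The sphingosine 1-phosphate receptor S1pr2 rose from 64.3 ± 0.741 to 75.3 ± 1.69 CPM and Cacna1c, the pore of the L-type calcium channel, from 13.6 ± 1.66 to 19.1 ± 2.00 CPM. Kcnmb1, a potassium channel subunit of mature smooth muscle named after its values were seen, had too few reads to test, at 0.437 ± 0.0232 and 0.552 ± 0.218 CPM.

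Of 20 myofibroblast and TGF-beta genes, all tested, 10 rose and 5 fell (against 20.5% and 19.0% of all genes), and the median log2 fold change was 0.12; the number lower was 3 with library totals only or without fed replicate 1, and 2 without fed replicate 2 or 3. Ctgf rose from 1691 ± 85.1 to 2431 ± 73.0 CPM, Inhba from 106 ± 2.99 to 157 ± 11.1 CPM and the ligand Tgfb2 from 40.0 ± 2.58 to 53.9 ± 1.87 CPM. Genes of this list that code for matrix, named after their values were seen, were called in both directions, Postn and Tnc higher and Fn1, Col1a1 and Col3a1 lower; Tnc lost its call in 3 of 15 alternatives, Col1a1 in 4 and Col3a1 in 2.

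Of 12 markers of mural cells, the pericytes and smooth muscle cells of vessels, 10 were tested, 1 rose and 7 fell (against 20.5% and 19.0% of all genes), and the median log2 fold change was -0.49. The number lower was between 5 and 7 when a library was left out. Ndufa4l2 fell from 324 ± 3.67 to 223 ± 7.41 CPM (adjusted p = 8.85e-10), Notch3, the Notch receptor of mural cells, from 75.3 ± 2.53 to 53.1 ± 3.53 CPM (8.79e-08) and Cox4i2 from 25.1 ± 1.33 to 16.3 ± 0.341 CPM (2.22e-07). Cspg4, the proteoglycan NG2, was the exception, with 46.7, 44.8 and 43.7 CPM in control and 83.0, 74.6 and 69.7 CPM in fed libraries, a rise of 0.75 ± 0.057 on the log2 scale (adjusted p = 1.51e-08). Ndufa4l2 and Cox4i2 are also induced by low oxygen, and the fed wells were kept at 5% oxygen while that of the control wells is not given; the oxygen and the feeding cannot be told apart. Chosen after their values were seen, Rgs5, a defining pericyte marker, had 1.37 ± 0.303 CPM in control libraries, and Higd1b had no count.

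**Figure D5:**
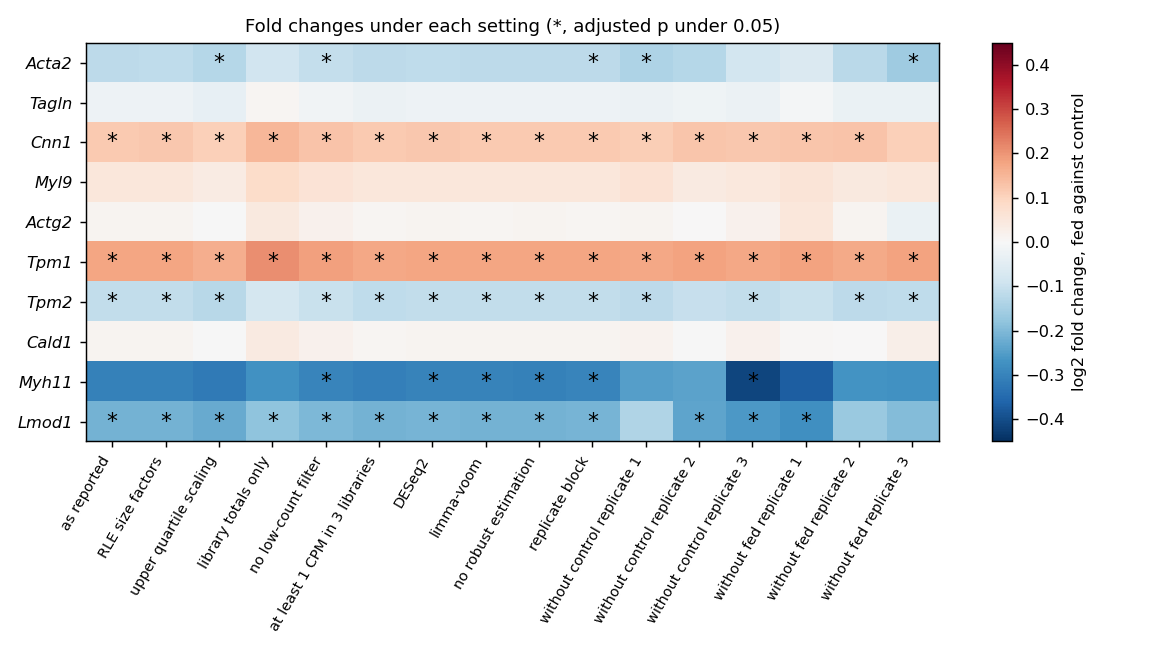
Log2 fold change of each contractile gene (rows) as reported and under 15 alternatives (columns), in colour from lower (blue) to higher (red) in fed cells, with a star where the adjusted p was under 0.05. Tpm1 carries a star in every column, Cnn1 in all but 1, Myh11 in 6 and Acta2 in 5, and Tagln, Myl9, Actg2 and Cald1 in none.

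Across the 6 libraries, the genes whose log2 CPM followed that of Acta2 most closely, of 11330 compared, were Zfp119b, Stradb, Rnf19a and 2 genes known by clone names only, with Pearson correlations between 0.981 and 0.994. None of these 5 was called, and with 6 libraries that share 2 groups such values are a description of these libraries.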

How the data were processed

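The deposited table holds raw counts per gene symbol for 6 libraries made from 200 ng of total RNA with a stranded poly(A) kit, per the labels. Trimming with Trimmomatic 0.36, alignment with STAR 2.6.0c and counting with featureCounts (Subread 1.6.1) on build GRCm38 are named in the submitters' processing notes; the sources used here give no annotation release or strand setting. The fit used edgeR 4.0.16 under R 4.3.3 (filterByExpr, TMM, robust quasi-likelihood F-test, Benjamini-Hochberg adjustment over 13092 genes, called under 0.05). CPM divide counts by the TMM-scaled total; each SE is the log2 fold change over the root of its F. Whether replicates are separate cultures or animals is not in the labels; p-values therefore measure only how these samples vary, possibly for technical reasons. Library pairs of a group differed by more than sampling noise. The 27 gene names that had turned into dates (0.227% of counts) stayed in the fit and are not named. Named were the 10 contractile genes, a panel (Actb, Actg1, Mylk, Srf, Myocd, Mkl1, Mkl2), up to 4 called genes with the smallest adjusted p of each list, and the 5 genes most like Acta2. A gene that this rule names is not reported here. Members and lists were chosen with earlier results of these data known. The fit was tested on simulated data. Alternatives were RLE, upper quartile and no scaling beyond totals, 2 other filters, DESeq2 1.42.0, limma-voom (limma 3.58.1), no robust estimation, a replicate block, a threshold of 0.01 and each library left out. The 15 alternatives counted for single genes leave out the threshold of 0.01, which entered only the numbers of genes called.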

Additional observations from a re-analysis of the deposited data

How the results depend on the processing

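The median log2 fold change of all genes was -0.0066 as reported, -0.0055 with RLE and -0.0195 with upper quartile scaling. These 3 scalings each place the bulk of genes near 0, so their medians are no check of the scaling. With library totals only the median was 0.025. Of 150 refits of the 10 contractile genes, 127 kept direction and side of the threshold, 7 lost a call, 11 gained one and 5 changed sign. The number called higher was 2 in every alternative run on all libraries, and 1 to 2 when a library was left out. Over all genes the number higher was 2682 as reported, 1940 at an adjusted p under 0.01 and 3183 with library totals only. It was 2179 to 2623 when a library was left out. The number of the 10 called lower, 2 as reported, was 1 with library totals only, 4 with no low-count filter and 0 at an adjusted p under 0.01. It was 1 to 3 when a library was left out and 4 with the replicate block (Acta2, Tpm2, Myh11 and Lmod1). Over all genes the number lower moved as well, from 2493 as reported to 2029 with library totals only and 1675 at an adjusted p under 0.01. With no low-count filter it was 2413 of 23263, and 1966 to 2465 when a library was left out. The same backgrounds apply to the numbers given for the other lists under these settings. The labels give both groups the same replicate numbers, and deviations of same-numbered libraries correlated at 0.101, 0.0220 and 0.128. Control replicates 1 and 3 correlated best with the fed library of their own number, and control replicate 2 with fed replicate 1. The labels do not say whether the numbers mark pairs, and they were not taken as pairs. Over all genes the block moved the calls from 2682 higher and 2493 lower to 2989 and 2859. Sign changes were at values near 0: Tagln at 0.0078 with library totals only, Actg2 at -0.0017 with upper quartile scaling and -0.030 without fed replicate 3 (-0.030 to 0.053 over left-out libraries), and Cald1 at -0.0022 with upper quartile scaling and -0.0019 without control replicate 2 (-0.0019 to 0.028). The cause of these changes was not tested. Of 570 refits of the panel and list genes that the naming rule picks, 551 kept direction and side of the threshold. Those that lost a call were of Actn3 (6 of 15) and Cd14 (12 of 15), and 1 refit of Mkl1 gained one. Mkl1 and Mkl2 had no call to lose. The list genes were picked for small adjusted p in these same 6 libraries, so their kept calls are no independent support. Of genes named after their values were seen, Synpo2 lost its call in 8 of 15 refits, Col1a1 in 4, Tnc in 3, Pdlim5 and Col3a1 in 2 and Acta1 in 1. The block also called 4 channels and receptors higher, against 2. At this depth Myocd, Agtr1a and Ppp1r14a rest on few reads.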
